A study of Homo sapiens with 12 samples.

Results

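S100 genes encode small calcium-binding proteins, and 10 of them were followed across wild-type and ASAP2 knockout cells of a pair of human pancreatic ductal adenocarcinoma lines. The genes are S100A2, S100A3, S100A4, S100A6, S100A10, S100A11, S100A13, S100A14, S100A16 and S100P. They were taken by symbol from the 22650 symbols listed in any library. The family was chosen by the FPKM values of S100A4, which moved in opposite directions in the lines, so the changes of S100A4 are described here without a p-value. Total RNA of 4 groups with 3 libraries each was sequenced, which gives 12 libraries: Panc1 wild type, Panc1 ASAP2 knockout, MiaPaCa2 wild type and MiaPaCa2 ASAP2 knockout. Panc1 and MiaPaCa2 are established lines from pancreatic ductal tumours, and ASAP2 is an Arf GTPase-activating protein known from membrane traffic and focal adhesions. The sources used here do not say how the knockouts were made, whether each is 1 clone or a pool, or whether the 3 libraries of a group are separate cultures. The p-values therefore measure only the spread between these libraries, which may be technical.

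S100 proteins form dimers through their EF-hand domains. Binding of calcium opens a cleft in which the target protein sits, and most family members thereby turn a calcium signal into a change of a partner protein. S100A10 is an exception, since it has lost calcium binding and is held in an active shape. S100A4, also called metastasin or fibroblast-specific protein, binds non-muscle myosin and is known for its link to cell motility and metastasis. S100A2, S100A4, S100A6, S100A11, S100A14 and S100P have each been studied as markers of pancreatic or other epithelial cancers.

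Most of the genes lie in a cluster on chromosome 1. On the hg19 build, which the files use, S100A6 lies at chr1:153507075-153508720, S100A4 at chr1:153516089-153522612, S100A3 at chr1:153519805-153521734 and S100A2 at chr1:153533584-153540366. S100A16 follows at chr1:153579362-153585621, S100A14 at chr1:153586731-153589462 and S100A13 at chr1:153591263-153603836. S100A10 at chr1:151955391-151966335 and S100A11 at chr1:152004982-152020383 stand apart on the same chromosome. S100P is the only one of the 10 elsewhere, at chr4:6695605-6698897. All are protein coding, and all except S100P are on the reverse strand. S100A3 lies wholly within the long form of S100A4 on the same strand, over 1930 bases, but their annotated exons share 0 bases. S100A13 overlaps S100A1 on the opposite strand, with 235 exonic bases in common. The sources used here do not say whether counting used strand, so reads of that pair cannot be told apart there.

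The 250 bases before the RefSeq start are shown for 4 genes. S100A4 is the gene that moved oppositely, S100A3 is its nested neighbour, and S100A10 and S100A11 are the members that rose in Panc1. Each sequence had 1 exact match in hg19 and touches 0 annotated exons there. Sequences are from RefSeq's promoter table (GRCh38.p14), are on the reverse strand and read 5′ to 3′ toward the start, with motif matches in capitals.
S100A4: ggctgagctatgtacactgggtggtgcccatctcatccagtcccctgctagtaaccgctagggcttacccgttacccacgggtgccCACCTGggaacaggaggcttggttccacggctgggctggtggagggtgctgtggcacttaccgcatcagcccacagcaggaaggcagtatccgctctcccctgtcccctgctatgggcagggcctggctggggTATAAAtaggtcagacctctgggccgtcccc
S100A3: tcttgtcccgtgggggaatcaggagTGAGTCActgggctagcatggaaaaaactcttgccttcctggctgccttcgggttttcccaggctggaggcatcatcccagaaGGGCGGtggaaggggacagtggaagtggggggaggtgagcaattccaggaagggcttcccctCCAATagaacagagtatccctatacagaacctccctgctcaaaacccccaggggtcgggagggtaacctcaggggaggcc
S100A10: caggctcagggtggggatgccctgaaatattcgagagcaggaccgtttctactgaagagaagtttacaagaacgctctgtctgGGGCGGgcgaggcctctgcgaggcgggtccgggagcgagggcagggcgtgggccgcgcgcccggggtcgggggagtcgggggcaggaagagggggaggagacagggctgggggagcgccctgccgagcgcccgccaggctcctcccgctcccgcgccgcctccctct
S100A11: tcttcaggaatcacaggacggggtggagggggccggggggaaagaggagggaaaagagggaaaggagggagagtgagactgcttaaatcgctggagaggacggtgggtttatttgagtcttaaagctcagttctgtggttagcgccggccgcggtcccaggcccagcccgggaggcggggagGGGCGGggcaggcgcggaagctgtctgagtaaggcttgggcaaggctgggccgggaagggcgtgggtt
In hg19 these windows are chr1:153518283-153518532 for S100A4, chr1:153521735-153521984 for S100A3, chr1:151966336-151966585 for S100A10 and chr1:152009481-152009730 for S100A11. Both strands of each window were searched for 6 motifs. They were the AP-1 site spelled TGANTCA, the TATA box of basal transcription spelled TATAAA, and the GC box of the factor SP1 spelled GGGCGG. The others were the E-box of repressors such as SNAI1 spelled CAGGTG, the site of the TCF and LEF factors spelled ATCAAAG, and the box of factor NF-Y spelled CCAAT. No printed matches overlap each other. The S100A4 window held TATAAA from 31 to 26 bases before the start and an E-box from 164 to 159 bases before it. Of 35116 RefSeq promoter windows of this length, 10.7% held TATAAA and 17.5% held that E-box. The S100A3 window held an AP-1 match (6.57% of all windows), a GC box (42.6%) and a match to CCAAT (32%). The windows of S100A10 and S100A11 each held 1 GC box. They were also richer in CpG, with 24 in S100A10 and 15 in S100A11 against 7 in S100A4, 4 in S100A3 and a median of 11 over all windows. Of the members that fell in Panc1, S100A6 also held 24 CpG in its window, and the windows of S100A13 held 15, 10 and 8. The S100A6 window and the S100A13 window with 15 CpG held GC boxes too. These traits were thus not particular to the members that rose. A match describes letters only.

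The libraries matched their labelled tissue in part. FPKM summed to 360765 to 392610 per library and 11842 to 12500 genes reached 1 FPKM, while read depth is unknown, as only FPKM is held. ASAP2 mRNA, the check on the knockout, was 38.6, 37.5 and 34.6 FPKM in wild-type Panc1 and 14.2, 14.5 and 12.7 FPKM in Panc1 knockout libraries. In MiaPaCa2 it was 13.2, 13.6 and 13.8 FPKM without and 12.01, 13.8 and 11.3 FPKM with the knockout, which overlap (limma, adjusted p = 0.197), so the labels of that line are not checked by it. Of 7 ductal markers, 6 had a mean of at least 1 FPKM in both Panc1 groups and 4 in both MiaPaCa2 groups. The cell-surface marker EPCAM was listed at 0 throughout MiaPaCa2, and E-cadherin (CDH1) reached at most 0.419 FPKM in Panc1 and 0.02 FPKM in MiaPaCa2. The summed ductal markers were 1239 to 1274 FPKM in wild-type Panc1 and 1141 to 1254 FPKM in Panc1 knockout libraries, against 1227 to 1266 FPKM in wild-type MiaPaCa2 and 873 to 902 FPKM after knockout. In Panc1 this sum held opposite shifts, with KRT19 at 541 and 254 FPKM, KRT8 at 372 and 514 FPKM, and KRT18 at 310 and 404 FPKM (means without and with the knockout). In MiaPaCa2 the means of KRT19, KRT8 and KRT18 were all lower after knockout. Those of MUC1 (3.12 and 3.42 FPKM) and, near the floor, KRT7 (0.0303 and 0.0577 FPKM) were higher. The mesenchymal list (VIM, CDH2, ZEB1, FN1) summed to 2202 to 2368 FPKM in wild-type Panc1 and 2716 to 2769 FPKM after knockout, and to 2419 to 2493 and 1916 to 2063 FPKM in MiaPaCa2. Nearly all of it was VIM, with means of 2255 and 2706 FPKM in Panc1. The other genes did not share one direction in Panc1, with CDH2 at 15.7 and 32.8 FPKM, ZEB1 at 7.82 and 7.40 FPKM, and FN1 at 0.206 and 0.0713 FPKM. The part of either list in the results below was not tested. The summed markers of leukocytes stayed at or under 0.803 FPKM, those of melanocytes and Schwann cells at or under 0.614 FPKM, and those of endothelium at or under 0.034 FPKM, in each of the 12 libraries.

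Levels are the mean ± SD of 3 libraries, in FPKM, which is scaled to gene length. Changes are knockout minus wild type after taking log2(FPKM + 1). This scale understates changes of low genes. Tests were made with limma over 13340 genes, with Benjamini-Hochberg adjustment over all of them and a call at an adjusted p below 0.05. In Panc1 the median of all genes was -0.10 in the values as deposited and 0.0026 after rescaling each library by its median ratio. The share of called genes that were lower in Panc1 was 65.6% as deposited and 47.9% after that rescaling. For the difference between the lines the lower share went from 65.2% to 48.2%. In bulk RNA, a change in the number of cells that make a transcript and a change in the amount per cell cannot be told apart.

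Of the 10 genes, 8 passed the filter on low values, and S100A14 and S100P did not. Among the 7 that passed besides S100A4, 2 rose in Panc1 knockout cells (S100A10, S100A11), 2 fell (S100A6, S100A13) and 3 were not called. That is 57.1% called, against 63.5% of all genes (21.8% higher and 41.6% lower). In MiaPaCa2, 1 of the 7 rose (S100A2), 2 fell (S100A13, S100A16) and 4 were not called, or 42.9% against 34.1% of all genes (17.8% higher and 16.3% lower). The change differed between the lines for 6 of the 7, with 3 differences positive (S100A10, S100A11, S100A16) and 3 negative (S100A2, S100A6, S100A13). Among all genes 57.4% were called in that test, 20% positive and 37.4% negative. Over the 7 genes the median change was 0.093 in Panc1, against -0.10 for all genes, and 0.013 in MiaPaCa2, against 0.011. With S100A4 included, the Panc1 median was -0.078, so its sign depends on that gene. S100A13 alone was called in both lines, and it fell in both. Wild-type and knockout values did not overlap for any of the 7 in Panc1, as in 70.1% of all genes, and for 3 of the 7 in MiaPaCa2, as in 43.5% of all genes.

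**Figure D1:**
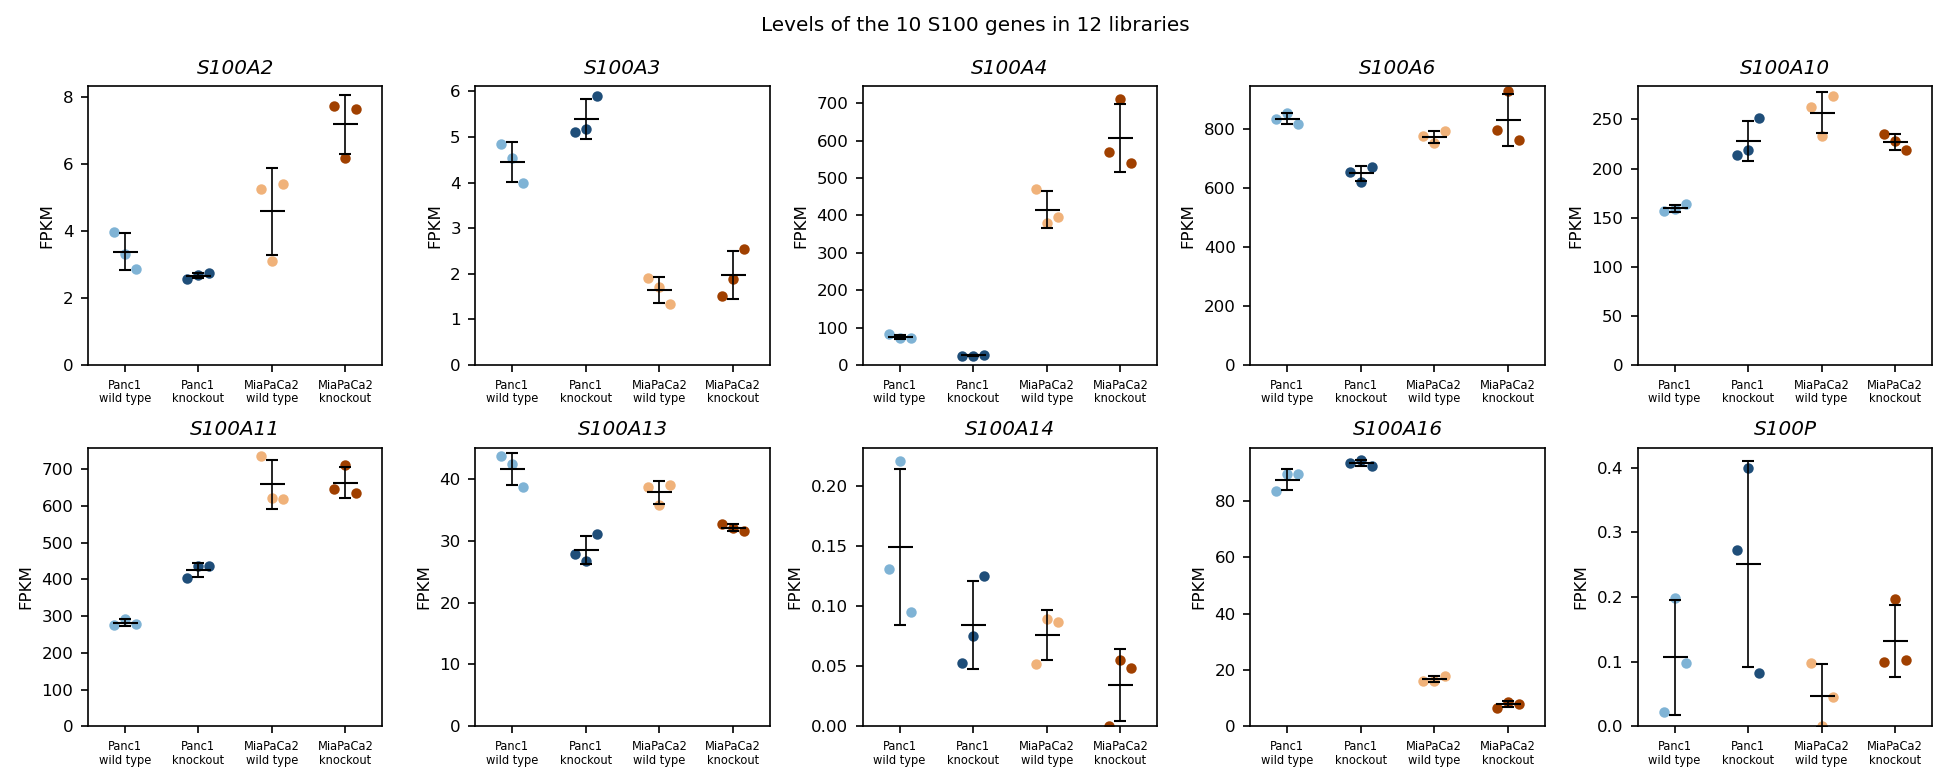
FPKM (y axis, linear from 0, own scale per panel) of each of the 10 S100 genes by group (x axis). Points are the 3 libraries of a group and bars the mean ± SD. S100A4 falls from 74.7 to 25.9 FPKM in Panc1 and goes from 415 to 607 FPKM in MiaPaCa2, while S100A14 and S100P stay under 0.5 FPKM.

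S100A4 had the widest range of the 10 genes in FPKM. In Panc1 its level was 82.01, 71.2 and 71.03 FPKM in the wild-type libraries and 24.6, 25.1 and 27.9 FPKM in the knockout libraries. The wild-type values were all above the knockout values, with means of 74.7 ± 6.305 and 25.9 ± 1.79 FPKM. The knockout mean was 2.89-fold lower, and the log2 change was -1.49 (SE 0.11), or -1.39 relative to the median of all genes. In MiaPaCa2 its level was 471, 379 and 395 FPKM in wild type, against 570.2, 712 and 539 FPKM after knockout. Again the groups did not overlap, but with the knockout libraries on top, at 607 ± 91.9 against 415 ± 49.4 FPKM. The knockout mean was 1.46-fold higher and the log2 change was 0.54 (SE 0.11). Without MiaPaCa2 knockout replicate 2, the highest library, the change was 0.42. The 4 groups thus stood in the order MiaPaCa2 knockout, MiaPaCa2 wild type, Panc1 wild type and Panc1 knockout, with no overlap between neighbours. In the wild-type libraries S100A4 was 5.56-fold higher in MiaPaCa2 than in Panc1. Opposite calls in the lines were found for 10.1% of all genes. Since S100A4 was picked for this pattern, its values are a description.

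Of the genes adjoining S100A4, S100A6 and S100A2 had changes of the same sign as S100A4 in each line, though neither was called in both lines. S100A5 rose in MiaPaCa2, but it was near the floor in Panc1, so no sign is read from it there. S100A3 did not share the sign of S100A4 in Panc1. The medians of all genes as deposited, -0.10 in Panc1 and 0.011 in MiaPaCa2, had the signs of S100A4 too. After rescaling by the median ratio the Panc1 median was 0.0026 and no longer had that sign. The share of all genes with the signs of S100A4 was not counted. S100A6, or calcyclin, which binds the calcyclin-binding protein CACYBP and annexins, was at 832, 853 and 817 FPKM in wild-type Panc1 and 655, 620.02 and 672 FPKM in Panc1 knockout libraries. All 3 knockout values lay below the wild-type values. It fell in Panc1 by 0.36 on the log2 scale (SE 0.06, adjusted p = 2.9e-04), and by 0.26 relative to all genes. In MiaPaCa2 it was 773 ± 20.2 FPKM without and 829 ± 88.8 FPKM with the knockout. There its libraries overlapped (log2 change 0.10, adjusted p = 0.272), and knockout replicate 2 at 929 FPKM was the highest. The difference between the lines was -0.46 (adjusted p = 9.2e-04).

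S100A5, which lies between S100A6 and S100A4 and is not among the 10, was tested as a member of the wider family list. It was near the floor in Panc1, at 0.425, 0.250 and 0.160 FPKM without and 0.263, 0.141 and 0 FPKM with the knockout. In MiaPaCa2 it rose from 3.25, 3.21 and 3.42 FPKM to 4.93, 5.25 and 4.96 FPKM, without overlap (log2 change 0.49, SE 0.09, adjusted p = 0.00121). With a pseudocount of 0.1 this was 0.60 and did not pass (adjusted p = 0.239).

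S100A3, best known from the hair cuticle, is nested in S100A4. Its level in Panc1 was 4.84, 4.55 and 3.98 FPKM without and 5.11, 5.18 and 5.89 FPKM with the knockout. The knockout values were all above the wild-type values, by 0.23 on the log2 scale, but the change was not called (adjusted p = 0.11). After rescaling by the median ratio it was 0.34 and passed (adjusted p = 0.0233). In MiaPaCa2 it was 1.90, 1.71 and 1.33 FPKM without and 1.51, 1.88 and 2.54 FPKM with the knockout, which overlapped (log2 change 0.16, adjusted p = 0.336). Unlike S100A4 it was 2.70-fold higher in wild-type Panc1 than in wild-type MiaPaCa2 (log2 difference 1.05, adjusted p = 2.6e-06). The difference between the lines was 0.07 and not called (adjusted p = 0.743).

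S100A2, a member known from epithelial cells, lies on the other side of S100A3. Panc1 wild type held 3.95, 3.29 and 2.86 FPKM and Panc1 knockout 2.57, 2.67 and 2.73 FPKM. The knockout values were all lower, but the change of -0.25 was not called (adjusted p = 0.168). It passed without MiaPaCa2 wild-type replicate 2, at the same change (adjusted p = 0.0393). In MiaPaCa2 S100A2 rose from 5.25, 3.09 and 5.40 FPKM to 7.72, 6.17 and 7.63 FPKM (log2 change 0.57, SE 0.15, adjusted p = 0.0113), with wild-type replicate 2 well below the other wild-type libraries. The difference between the lines was -0.82 (adjusted p = 0.00574), the largest negative one of the 7 tested genes besides S100A4.

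S100A16, a widely expressed member that binds less calcium than most, changed in MiaPaCa2. There it fell from 16.3, 16.2 and 18.1 FPKM to 6.72, 8.80 and 7.95 FPKM, without overlap. The knockout mean was 2.16-fold lower (log2 change -1.02, SE 0.07, adjusted p = 1.1e-06). In Panc1 it was 83.5, 89.6 and 89.7 FPKM without and 93.4, 94.6 and 92.3 FPKM with the knockout. Those values did not overlap either, but the log2 change was 0.09 and not called (adjusted p = 0.29). After rescaling by the median ratio it was 0.23 and passed (adjusted p = 0.0219). The difference between the lines was 1.12 (SE 0.10, adjusted p = 3.7e-06). S100A16 was 5.195-fold higher in wild-type Panc1 than in wild-type MiaPaCa2 (adjusted p = 6.6e-12), and the knockout libraries were further apart.

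S100A13, which helps to release fibroblast growth factor 1 (FGF1) and interleukin-1 alpha (IL1A) from cells, fell in both lines. Panc1 wild type held 43.7, 42.3 and 38.7 FPKM and knockout 27.8, 26.7 and 31.02 FPKM (log2 change -0.53, SE 0.06, adjusted p = 9.8e-06). MiaPaCa2 wild type held 38.7, 35.7 and 38.9 FPKM and knockout 32.6, 32.1 and 31.5 FPKM (log2 change -0.23, adjusted p = 0.0119). The groups did not overlap in either line. The larger change in Panc1 passed the test of the difference (-0.30, adjusted p = 0.00949), but did not after rescaling by the median ratio (-0.16, adjusted p = 0.123). S100A1, which overlaps it on the other strand and is known from heart muscle, went from 1.86 ± 0.244 to 1.37 ± 0.167 FPKM in Panc1 (log2 change -0.27, adjusted p = 0.0446). That call was lost under 10 of 18 alternatives. In MiaPaCa2 S100A1 was 1.98 ± 0.177 FPKM without and 1.61 ± 0.408 FPKM with the knockout (adjusted p = 0.177).

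S100A10 and S100A11 lie apart from the rest and rose together in Panc1. S100A10, or p11, joins annexin A2 at the plasma membrane and there binds plasminogen. It went from 157, 159 and 164 FPKM to 213, 219 and 252 FPKM in Panc1, without overlap. The knockout mean was 1.43-fold higher (log2 change 0.51, SE 0.07, adjusted p = 3.4e-05). S100A11, or calgizzarin, a partner of annexin A1, went from 276, 294 and 278 FPKM to 405, 438 and 436 FPKM. Its knockout mean was 1.51-fold higher (log2 change 0.59, SE 0.07, adjusted p = 9.5e-06). Relative to the median of all genes these changes were 0.61 and 0.69.

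Neither of them was called in MiaPaCa2. S100A10 was 263, 234 and 274 FPKM without and 235, 229 and 219 FPKM with the knockout (log2 change -0.17, adjusted p = 0.0651). Wild-type replicate 2 was the only wild-type value within the knockout range, and without it S100A10 was lower at -0.24 (adjusted p = 0.0188). Without Panc1 knockout replicate 3 the change was the same -0.17 and passed as well (adjusted p = 0.0325). S100A11 was 736, 622 and 619.8 FPKM without and 645, 711 and 636 FPKM with the knockout, which overlap (log2 change 0.013, adjusted p = 0.915). The difference between the lines was 0.68 for S100A10 (adjusted p = 8.5e-05) and 0.58 for S100A11 (adjusted p = 2.8e-04). In the wild-type libraries both were lower in Panc1 than in MiaPaCa2, by 0.68 and 1.22 on the log2 scale (adjusted p = 6.8e-07 and 1.7e-09). As deposited, S100A10 was at 228 ± 20.6 FPKM in Panc1 knockout and 227 ± 8.12 FPKM in MiaPaCa2 knockout libraries. In wild-type MiaPaCa2 it was at 257 ± 21.1 FPKM. The knockout groups were not tested against each other.

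**Figure D2:**
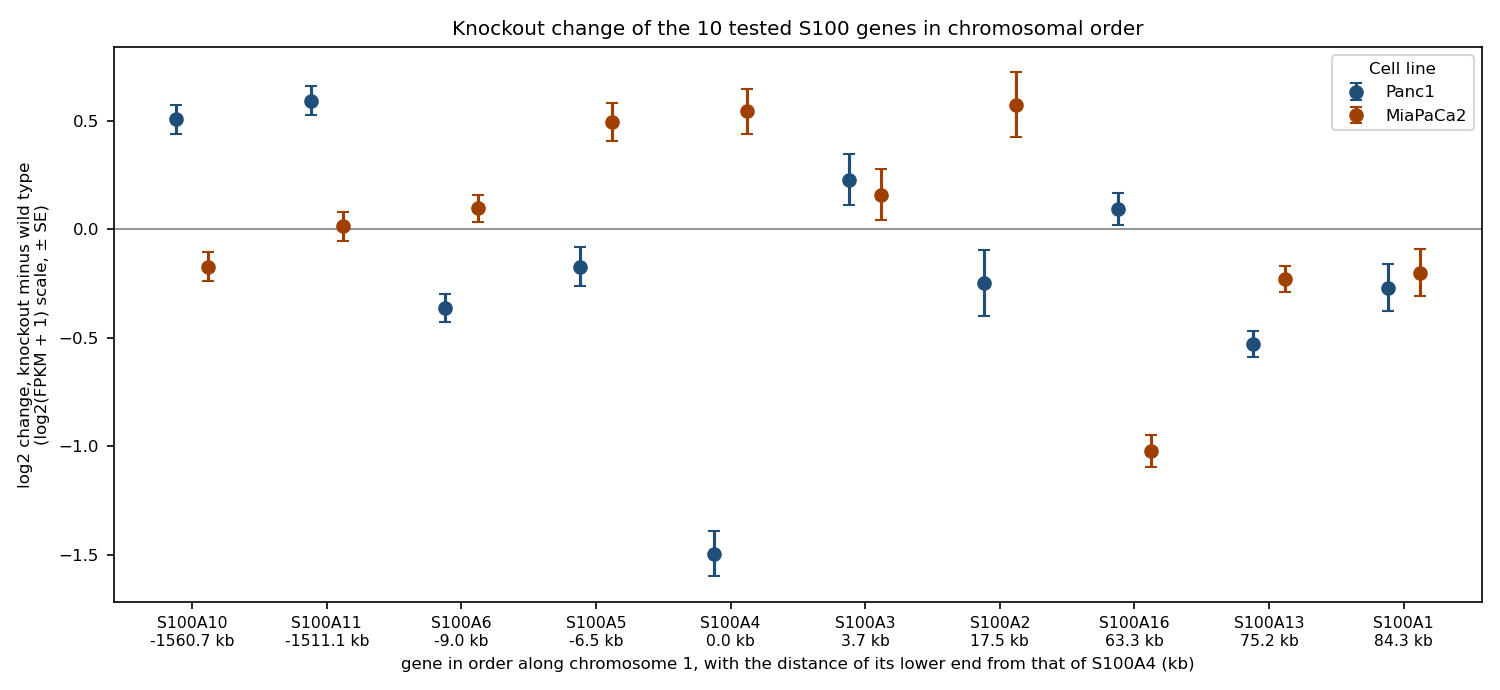
Change of the 10 tested S100 genes on the log2(FPKM + 1) scale (y axis, knockout minus wild type, bars ± SE) in their order along chromosome 1 (x axis), for Panc1 and MiaPaCa2. S100A4 stands at -1.49 and 0.54, next to S100A3 at 0.23 and 0.16, and S100A16 stands at 0.09 and -1.02.

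S100A14 and S100P were hardly detected. S100A14, a member of epithelial cell membranes, lay between 0 and 0.221 FPKM over the 12 libraries. S100P, which binds the membrane linker ezrin and is a known marker of pancreatic ductal tumours, lay between 0 and 0.399 FPKM. In Panc1 S100P was 0.023, 0.199 and 0.098 FPKM without and 0.272, 0.399 and 0.082 FPKM with the knockout. At this level no change is read from either gene. Of the 11 other genes in the wider family list of 21, S100A1 and S100A5 were tested. S100Z stayed at or under 0.442 FPKM and S100A7 at or under 0.084 FPKM. The other 7, among them the neutrophil genes S100A8, S100A9 and S100A12 and the glial gene S100B, had no value here and were not analysed here.

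The summed level of the 10 genes was higher in MiaPaCa2 than in Panc1. It was 1465 to 1517 FPKM in wild-type Panc1 and 1427 to 1519 FPKM in Panc1 knockout libraries, which overlap. It was 2043 to 2308 FPKM in wild-type MiaPaCa2 and 2204 to 2630 FPKM in MiaPaCa2 knockout libraries, which overlap as well. The makeup of the sum shifted in Panc1, where its size overlapped. There S100A6 held 55.8 to 56.2% of the sum in wild type and 43.3 to 45.9% in knockout libraries. S100A11 went the other way, from 18.6 to 19.4% in wild type to 28.4 to 30.6% in knockout libraries. The share of S100A4 was 4.69 to 5.53% in Panc1 wild type and 1.72 to 1.84% in knockout libraries. In MiaPaCa2 it was 18.4 to 20.4% in wild type and 24.5 to 27.1% in knockout libraries, where the level of S100A4 overlapped with that of S100A11. These shares sum to a whole, so they are not independent of each other.

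**Figure D3:**
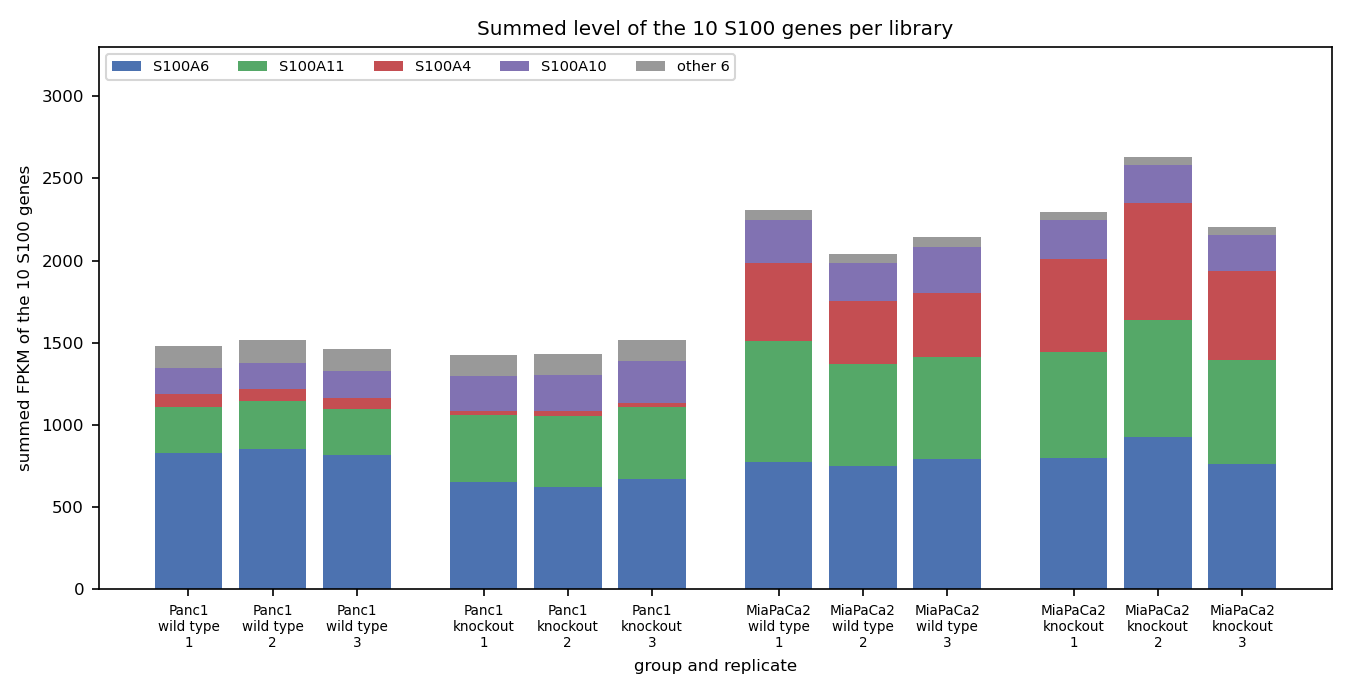
Summed FPKM of the 10 S100 genes (y axis) in each library (x axis, by group and replicate), stacked by gene. The S100A4 part covers 4.69 to 5.53% of the bar in Panc1 wild type, 1.72 to 1.84% in Panc1 knockout and 24.5 to 27.1% in MiaPaCa2 knockout libraries.

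Wild-type Panc1 and MiaPaCa2 differed in 4 of the 7 genes tested besides S100A4 (57.1%, against 82.7% of all genes, 41.8% higher and 40.9% lower in Panc1). The libraries of the lines did not overlap for 5 of the 7, as in 84.9% of all genes. S100A3 and S100A16 were higher in Panc1, and S100A10 and S100A11 were higher in MiaPaCa2, as given above. S100A6, at 834 ± 17.9 FPKM in Panc1 and 773 ± 20.2 FPKM in MiaPaCa2, was not called (log2 difference 0.11, adjusted p = 0.121). With each library rescaled to the same sum of FPKM it was 0.205 and passed (adjusted p = 0.014), and without MiaPaCa2 knockout replicate 2 it passed at 0.11 (adjusted p = 0.0176). S100A13 was not called either, at 0.13 (adjusted p = 0.055). It passed after rescaling to equal sums (0.23, adjusted p = 0.00358) or by the median ratio (0.15, adjusted p = 0.0349), and without Panc1 wild-type replicate 3 or Panc1 knockout replicate 2 or 3. S100A2 stood at -0.33 (adjusted p = 0.0564). It passed without MiaPaCa2 wild-type replicate 2 (-0.54, adjusted p = 5.35e-04), without Panc1 wild-type replicate 1 and with a filter of 5 FPKM.

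Partners of S100 proteins were followed in a list of 30 genes, of which 24 were tested. In Panc1 7 rose and 12 fell, 79.2% of the 24 tested, against 63.5% of all genes. In MiaPaCa2 4 rose and 5 fell, or 37.5% of the 24, near the 34.1% of all genes. The list's median change was -0.18 in Panc1, against -0.10 for all genes, and -0.0059 in MiaPaCa2, against 0.011. Of the 13 annexins, 8 were tested. ANXA1, ANXA2, ANXA5, ANXA6 and ANXA11 are in both lists, so the counts of the lists are not independent. In Panc1 1 rose and 5 fell, or 75% of the 8, against 63.5% of all genes called and 41.6% lower. In MiaPaCa2 3 fell, or 37.5% of the 8, against 34.1% of all genes called and 16.3% lower.

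The partners of S100A10 moved apart in Panc1. ANXA2, the annexin that S100A10 joins, rose from 897.7 ± 6.07 to 1087 ± 32.8 FPKM (log2 change 0.28, adjusted p = 1.9e-05). AHNAK, a giant scaffold protein that binds this complex, fell from 346 ± 6.35 to 275 ± 6.87 FPKM (log2 change -0.33, adjusted p = 1.4e-04). In MiaPaCa2 neither was called, with ANXA2 at 526 ± 11.1 and 538 ± 3.42 FPKM and AHNAK at 152 ± 11.1 and 162 ± 7.80 FPKM. ANXA2 exceeded S100A10 by 5.49 to 5.70-fold in Panc1 wild type and by 4.29 to 5.26-fold in Panc1 knockout libraries. In MiaPaCa2 it exceeded it by 1.90 to 2.22-fold in wild type and by 2.27 to 2.46-fold in knockout libraries. The ratio thus moved down in Panc1 and up in MiaPaCa2, without overlap between the groups of a line. PLAU, the plasminogen activator urokinase, had the largest change of the partner list in Panc1, from 137 ± 1.99 to 288 ± 33.6 FPKM (log2 change 1.06, adjusted p = 1.4e-06). In MiaPaCa2 it was not called (log2 change 0.22, adjusted p = 0.0954).

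ANXA1, the partner of S100A11, went against it in Panc1. It fell from 132 ± 7.58 to 68.4 ± 2.74 FPKM (adjusted p = 3.6e-07), a log2 change of -0.93. In MiaPaCa2 it also fell, from 468 ± 19.01 to 396 ± 43.05 FPKM (log2 change -0.25, adjusted p = 0.0182). That call was lost without wild-type replicate 3 (-0.21, adjusted p = 0.0722) and without knockout replicate 3 (-0.15, adjusted p = 0.0513). Of the other annexins, ANXA4 fell in both lines, at -0.29 in Panc1 (adjusted p = 0.00181) and -0.46 in MiaPaCa2 (adjusted p = 2.1e-04). Its call in Panc1 was lost after rescaling by the median ratio (adjusted p = 0.0582). ANXA7, an annexin of secretory granules, was at -0.15 in Panc1 (adjusted p = 0.0209) and -0.16 in MiaPaCa2 (adjusted p = 0.0268). Its call in Panc1 was lost after median-ratio rescaling (-0.011, adjusted p = 0.858) and without wild-type or knockout replicate 3 (adjusted p = 0.0848 and 0.0775). The ANXA7 call in MiaPaCa2 was lost with the replicate number in the fit (adjusted p = 0.0508) and without wild-type replicate 1, 2 or 3 or knockout replicate 2. ANXA9 fell in Panc1 from 1.92 ± 0.242 to 1.23 ± 0.0741 FPKM (log2 change -0.39, adjusted p = 0.00303). In MiaPaCa2 it stood at 0.865 ± 0.206 FPKM without and 0.944 ± 0.187 FPKM with the knockout and was not called (adjusted p = 0.67).

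**Figure D4:**
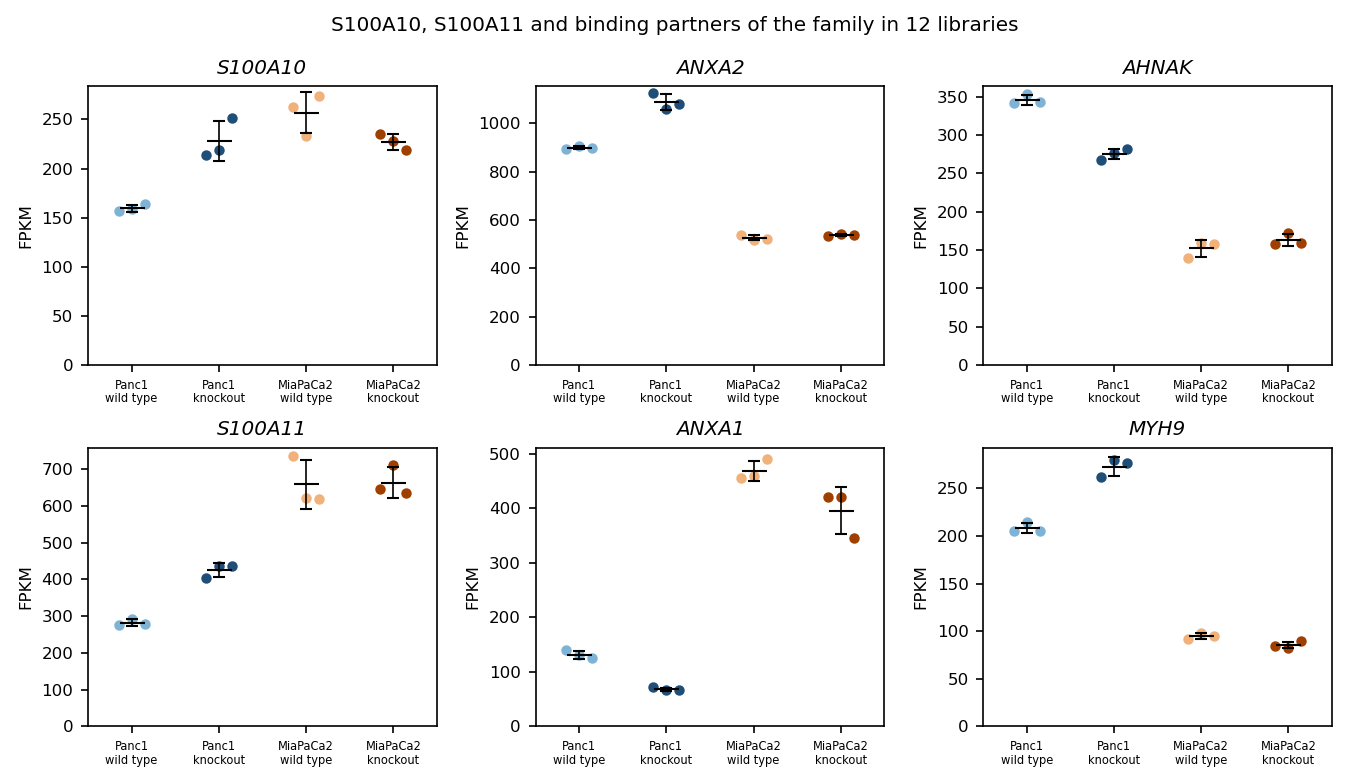
FPKM (y axis, linear from 0, own scale per panel) of S100A10, ANXA2, AHNAK, S100A11, ANXA1 and MYH9 by group (x axis), with 3 libraries per group as points and mean ± SD as bars. In Panc1 S100A11 goes from 282 to 426 FPKM while ANXA1 goes from 132 to 68.4 FPKM.

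The targets of S100A4 were not changed in a common direction. MYH9, the heavy chain of non-muscle myosin IIA, rose in Panc1 from 208 ± 5.59 to 273 ± 9.92 FPKM (log2 change 0.39, adjusted p = 8.3e-06). In MiaPaCa2 it fell from 94.9 ± 3.22 to 85.5 ± 3.48 FPKM (log2 change -0.15, adjusted p = 0.0193), a call that was lost without wild-type replicate 2 or 3 or knockout replicate 1 or 2. The difference between the lines was 0.54 (SE 0.06, adjusted p = 1.8e-05), opposite in sign to that of S100A4. PPFIBP1, or liprin beta, another S100A4 partner, fell in Panc1 from 25.8 ± 0.521 to 18.9 ± 0.537 FPKM (adjusted p = 8.4e-05) and was not called in MiaPaCa2 (log2 change 0.049, adjusted p = 0.613). METAP2, a methionine aminopeptidase that S100A4 binds, fell by 0.68 in Panc1 (adjusted p = 5.0e-06) and by 0.23 in MiaPaCa2 (adjusted p = 0.0252). The second call was lost without a filter, with the replicate number in the fit, and without wild-type or knockout replicate 3. MDM2, a ubiquitin ligase that binds S100 proteins, rose by 0.26 in MiaPaCa2 (adjusted p = 0.00719). In Panc1 MDM2 was at -0.15 and was not called (adjusted p = 0.0568), though the groups did not overlap.

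CACYBP, the partner of S100A6, fell with it in Panc1, from 28.3 ± 0.435 to 22.4 ± 1.52 FPKM (adjusted p = 1.6e-04), and was not called in MiaPaCa2 (log2 change -0.12, adjusted p = 0.0967). ANXA11, which also binds S100A6, was at -0.21 in Panc1 (adjusted p = 0.00916), but at -0.071 after median-ratio rescaling (adjusted p = 0.352). EZR, the ezrin gene, rose in Panc1 from 165 ± 2.23 to 201 ± 3.57 FPKM (adjusted p = 7.9e-06), though S100P was near 0. IQGAP1, a scaffold that binds S100P, fell there by 0.25 (adjusted p = 8.4e-04), which did not hold after median-ratio rescaling (-0.11, adjusted p = 0.0594). S100PBP, the S100P-binding protein, was not called in either line, at 0.024 (adjusted p = 0.762) and -0.052 (adjusted p = 0.581). Of the cargo of S100A13, IL1A stayed at or under 0.101 FPKM. FGF1 was 0.149 ± 0.0227 FPKM in wild-type Panc1 and 0.161 ± 0.0468 FPKM in Panc1 knockout libraries. In MiaPaCa2 FGF1 was 1.10 ± 0.204 FPKM without and 0.550 ± 0.0681 FPKM with the knockout, below the filter over that line. SYT1, a synaptotagmin in that release complex, fell by 0.41 in Panc1 (adjusted p = 0.00134) and by 0.57 in MiaPaCa2 (adjusted p = 4.0e-04). AGER, the receptor RAGE for secreted S100 proteins, was between 0.231 and 0.401 FPKM on average in the 4 groups and was not tested.

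Genes on either side of the S100 stretch of chromosome 1 give the local background. Among the 20 tested genes before S100A10, 8 rose and 5 fell in Panc1 (median 0.11) and 2 rose and 5 fell in MiaPaCa2 (median 0.037). Among the 20 after S100A1, 2 rose and 9 fell in Panc1 (median -0.083) and 3 rose and 4 fell in MiaPaCa2 (median -0.034). Among all genes 21.8% were higher and 41.6% lower in Panc1 (median -0.10), and 17.8% were higher and 16.3% lower in MiaPaCa2 (median 0.011). So before S100A10 more genes rose than fell in Panc1, unlike over all genes in the same unscaled values. With median-ratio scaling, 4271 of all genes were higher and 3922 lower in Panc1. The neighbours were not counted again with that scaling, so the contrast is limited to the unscaled values. The changes of these neighbours ran from -1.05 to 0.57 in Panc1 and from -0.27 to 0.80 in MiaPaCa2. DNA was not measured.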

How the data were processed

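RNA-seq of 12 libraries was used, 3 in each of 4 groups. The authors' deposited FPKM values per gene symbol were made with STAR 2.5.2a after trimming, filtering and TopHat2 2.0.14 alignment to hg19, per the submitters' processing notes and design text. Library preparation, strandedness and the treatment of reads with several matches are not stated in these sources. Symbols occurred once per library, and a missing symbol counts as 0. limma 3.58.1 in R 4.3.3 was fitted on log2(FPKM + 1) with 1 mean per group (8 residual degrees of freedom) and a mean-variance trend, over 13340 genes that averaged 1 FPKM or more across a line's 6 libraries. It was tested on simulated data. The members and lists were chosen with earlier results of these data known. Named genes are the 10 members, family genes of at least 1 FPKM, set direct partners (1 is not reported here), and the 3 largest called changes per list and line. Positions are from GENCODE release 44 on GRCh37. Alternatives were another pseudocount (0.1), no filter or 5 FPKM, rescaling to equal sums or by the median ratio, no trend, the replicate number as a block, and each library left out.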

Additional observations from a re-analysis of the deposited data

Results flagged for a closer look

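For 20 of the 27 named genes with a fit the knockout change differed between Panc1 and MiaPaCa2, 8 of them S100 genes. Some named genes were taken for a large called change in a line, so this share cannot be set against that of all genes. Each value is the log2 change in Panc1 minus that in MiaPaCa2, called in limma's test of the difference itself except for S100A4. For S100A4 it was -2.04. All its knockout values lay below the wild-type values in Panc1 and above them in MiaPaCa2. The difference was not tested because the gene was picked for it. Among the other S100 genes it was 1.12 for S100A16, 0.68 for S100A10 and 0.58 for S100A11. It was -0.82 for S100A2, -0.67 for S100A5, -0.46 for S100A6 and -0.30 for S100A13. S100A5 was near 0 FPKM in Panc1, where this scale holds its change near 0, so its value reflects the MiaPaCa2 change and is not read as a difference in response. The S100A13 call was lost with median-ratio scaling (-0.16, adjusted p = 0.123).

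Of the 12 other genes, the difference was positive for PLAU at 0.84, MYH9 at 0.54, EZR at 0.27 and ANXA2 at 0.24. It was negative for ANXA1 at -0.69, PPFIBP1 at -0.48, METAP2 at -0.45, ANXA9 at -0.45, AHNAK at -0.42, MDM2 at -0.41, IQGAP1 at -0.30 and CACYBP at -0.21. ANXA9 averaged 0.865 and 0.944 FPKM in MiaPaCa2, a level at which this scale understates changes. With median-ratio scaling the calls for IQGAP1 (-0.15, adjusted p = 0.0763) and CACYBP (-0.066, adjusted p = 0.44) were lost. The CACYBP call was also lost with the replicate number as a block (adjusted p = 0.0599) and without any 1 of 7 libraries. Across all genes 57.4% were called in this test.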

How the results depend on the processing

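The counts of S100 genes called, S100A4 aside, ran from 4 to 6 in Panc1 and from 3 to 4 in MiaPaCa2. They ran from 5 to 6 for the difference and from 4 to 6 between the wild-type lines. The 6 in Panc1 came with median-ratio scaling, 4 higher and 2 lower of 7 tested. With that scaling 4271 of all 13340 genes were higher and 3922 lower. As deposited, 2 of the 7 rose and 2 fell, against 2910 higher and 5556 lower of all genes. The standing of the members against all genes in Panc1 thus depended on the scaling. The change of S100A4 ran from -1.57 to -1.36 in Panc1 and from 0.42 to 0.64 in MiaPaCa2. With the replicate number as a block, 4 genes were called in Panc1, 3 in MiaPaCa2 and 6 for the difference. Same-numbered libraries did not deviate together (r from -0.165 to 0.0777), so the numbers were not taken as pairs. For differently numbered wild-type and knockout libraries of MiaPaCa2, r ran from -0.192 to 0.254. What those libraries may share was not tested. The block could not be fitted for the wild-type lines. Of 1701 values of named genes under the alternatives, 43 lost a call, 25 gained one and 19 changed sign, none of the last a call.

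The sign changes are those that follow, with the range over libraries left out. In the MiaPaCa2 effect they were ANXA11 (-0.104 to 0.011), ANXA9 (-0.0054 to 0.148), IQGAP1 (-0.0042 to 0.083), PPFIBP1 (-0.029 to 0.109) and S100A11 (-0.037 to 0.095). In Panc1, S100PBP ran from -0.021 to 0.050 and was -0.045 with equal sums. For the difference between lines, ANXA7 ran from -0.040 to 0.046 (-0.062 with equal sums), S100A3 from -0.046 to 0.202, and S100A1 from -0.198 to 0.028 (0.018 with median-ratio scaling). Between the wild-type lines S100A1 ran from -0.114 to 0.0082 (0.0017 with equal sums). The cause was not tested. Where a library is left out, its group's 2 remaining libraries borrow the spread of all groups. Depth is unknown, so genes below the filter are given as levels only. ANXA9 and S100A5 passed the filter through the line where they were higher.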

Other observations

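The genes whose level followed that of S100A4 most closely over the 12 libraries were TCEAL8 (Pearson r = 0.998), CYB5B (0.997), ZCCHC14 (0.996), HSPH1 (0.996) and TWSG1 (0.995), among tested genes with at least 5 FPKM in a group. TCEAL8 went from 4.003 ± 0.0846 to 1.52 ± 0.161 FPKM upon knockout in Panc1, and from 18.6 ± 2.03 to 24.2 ± 0.439 FPKM in MiaPaCa2. HSPH1, a heat shock protein, went from 23.7 ± 0.339 to 13.2 ± 0.602 FPKM in Panc1, and stood at 50.9 ± 1.51 and 58.2 ± 6.08 FPKM in MiaPaCa2. The 12 points are 4 groups of 3 libraries from a pair of lines, so the line difference carries much of each r, and no p is given. Within the family r with S100A4 was 0.965 for S100A5, 0.859 for S100A2, 0.746 for S100A11, 0.624 for S100A6, 0.394 for S100A10 and 0.261 for S100A13. It was -0.950 for S100A16 and -0.934 for S100A3.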
